A study of Danio rerio with 25 samples.

Results

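In zebrafish embryos that had been exposed to citalopram until 24 hpf and harvested at 48 hpf, 150 transcripts were described whose level relative to control fell at each rise in concentration, down a ladder of 4 doses. They were chosen by their measured values. A transcript was eligible when the authors' tables listed it at all 4 doses with a mean of at least 50 normalized counts in the citalopram group and in the control group of every table, which 22957 transcripts did, of 30242 listed at all doses and 32963 listed at any. L is the log2 ratio of the citalopram mean to the control mean of the same table, so that 0 is no difference and negative values are lower with citalopram. Of the eligible transcripts 821 had L falling without exception over the 4 concentrations, 225 of these had L of at most -0.2 at 250 μg/L, and the 150 with the largest fall in L between 0.9 and 250 μg/L were taken. Since L at every dose entered this choice, the values below are a description, and no test was applied to them.

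The study compared embryos exposed to 0.03, 0.9 or 50 μg/L citalopram, or to 250 μg/L, with unexposed control embryos, 5 libraries in each group and 25 in all. All were of the same WT background and were kept in 0.3x Danieau solution, with the drug present in the exposed groups from 0 hpf by the sample labels (slightly later by the study's methods) and washed out at 24 hpf. Each library held 50 pooled whole embryos, so differences between single embryos and between tissues are averaged. In the group means used here, fewer cells of a type cannot be told apart from less RNA per cell. The study estimated cell type proportions from its sequencing data with a single-cell reference and reported no significant change at any dose. Those estimates were not used here. The labels give the same batch date for all libraries, and the treatment text attached to the labels names opioids, whereas the titles, the treatment field and the study name citalopram.

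Citalopram is a selective serotonin reuptake inhibitor. It blocks the transporter that returns serotonin from the synapse into the neuron, and in the embryo serotonin also acts as an early developmental signal before synapses are formed. In zebrafish, 48 hpf is the time of hatching, when the main organs have formed and the first neural circuits are active. The measurements are of transcripts, not genes. An Ensembl transcript ID stands for a single splice form of a gene, Salmon divides reads among the splice forms that share them, and a change in the estimate for a single ID can be a change in the gene or a different division of its reads. The version number after the point of an ID is raised when the transcript model is revised. The tables used here pair 0 of the 32963 IDs with a gene, so the members have no gene names, no sequence and no genome position here, and the levels of serotonin pathway genes, tissue markers or any other gene list were not analysed. The identity of the sampled tissue could likewise not be checked against marker genes.

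What the files give for each transcript is the authors' mean of 5 libraries per group. The spread between libraries is not part of such means, and the authors' own standard errors and p-values were not used, so no replicate error stands beside any value below and it was not tested whether any step of the ladder exceeds it. The files used here do not give the depth of each library. The tables list 31103 to 31882 transcripts each. Their citalopram means, with every table on its own scale, sum to between 27493493 and 29297114 normalized counts. The 4 control columns are the same libraries on slightly different scales: once scaled to the 0.9 μg/L table, the log2 ratios of control means had an SD of at most 0.00084 over the eligible transcripts. The 4 doses therefore share a single control mean per transcript, and an error in that mean moves all 4 values of L together. It leaves their order untouched. Group means below are given on the scale of the 0.9 μg/L table. Where 4 values of L or 4 citalopram means follow each other without a label, they belong to 0.03, 0.9, then 50 and lastly 250 μg/L.

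The median member was above control at the lowest dose and below it at the 3 higher ones. Median L of the members, with rising dose, was 0.13, -0.06, -0.21 and -0.35. The corresponding ratios of citalopram to control were 1.09, 0.958, 0.864 and 0.787. Over all eligible transcripts the median L lay between 0.00071 and 0.022 at every dose. The lower quartiles of the members were 0.02, -0.14, -0.30 and -0.45, and the upper quartiles were 0.36, 0.01, -0.13 and -0.28. The median member thus crossed the control level between the 2 lowest doses.

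**Figure D1:**
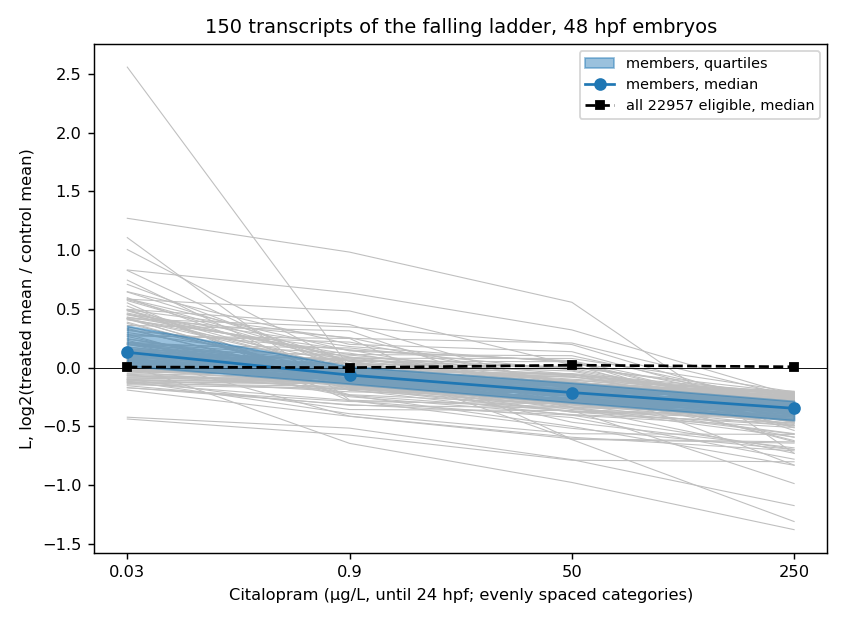
L, the log2 ratio of citalopram to control mean, against the 4 concentrations as evenly spaced categories, with a grey line for each of the 150 members, the blue line and band for their median and quartiles, and the dashed line for the median of all eligible transcripts. The member median passes from 0.13 at the lowest to -0.35 at the highest concentration, while the dashed line stays between 0.00071 and 0.022.

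Counts of members past a fixed size are given beside the share of all eligible transcripts past that size. The rule used these values, and the counts only describe the set. At 250 μg/L, L was -0.6 or lower in 18 members, against 0.488% of all eligible transcripts. The dose of 50 μg/L had 6 such members (0.680% of all eligible). A single member, 1 of 150, was as low at 0.9 μg/L (0.423%). No member reached -0.6 at 0.03 μg/L, where 2.53% of all eligible transcripts did. At that dose 10 members (6.67%) were higher than control by 0.6 or more, a share close to the 6.21% of all eligible. With a smaller size of 0.2, 57 members were higher at 0.03 μg/L (26.4% of all eligible). Lower by that size were 18 members at 0.9 μg/L (6.75%), while 78 members were lower at 50 μg/L (13.0%). The rule made all 150 lower at the highest dose (9.91%).

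The 2 members with the largest fall between 0.9 and 250 μg/L are named by a fixed rule, as are the 2 with the highest L at 0.03 μg/L, and 1 transcript is in both. ENSDART00000100954.5, which headed the ladder, averaged 89.9 normalized counts in control embryos and 217.2, 177.9, 132.1 and 54.3 over the citalopram groups. It was thus above control at 3 doses and below it only at the highest. Its L was 1.27, 0.98, 0.56 and -0.73. The step of 1.29 between 50 and 250 μg/L was the largest of that step in any member. The mean at 250 μg/L lies close to the minimum of 50 normalized counts that made a transcript eligible.

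ENSDART00000191966.1, the second of the ladder, was more abundant and fell in 3 similar steps. Control embryos averaged 891.0 normalized counts, and the citalopram groups 1389, 926.1, 583.9 and 360.2. L was 0.64, 0.06, -0.61 and -1.31, with steps of 0.59, 0.67 and 0.70. At 250 μg/L the citalopram mean was 0.404 of the control mean, and at 0.03 μg/L it was 1.56 times the control mean.

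ENSDART00000173940.2 met the rule with nearly its whole fall in the first step. Its mean was 896.8 normalized counts for control and 5289 at the lowest dose, 5.89 times control. The 3 higher doses had 898.6, 814.9 and 772.5 normalized counts, close to control. The first step was 2.55 on the log2 scale and the next were 0.14 and 0.08, so this transcript, which stood at rank 111 of the 150, was set apart by the lowest dose alone.

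**Figure D2:**
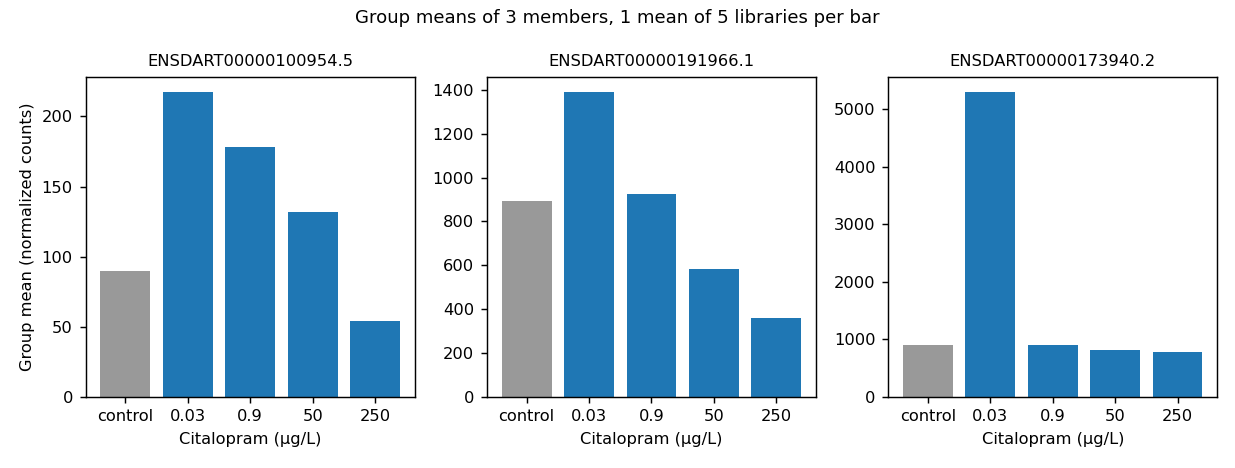
Authors' group means in normalized counts, 1 bar for each group from control to 250 μg/L, for the 3 named members (each panel has its own axis from 0). The first and second fall over all doses, and the third stands at 5289 at 0.03 μg/L and between 772.5 and 898.6 in the other groups.

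The rule fixes the order of the doses and puts 250 μg/L below control, but not where control stands among the other doses. The members differed in this, and the ranking bears on their shares. Of the candidates, 63 were below control at every dose and 121 were above it at 0.03 μg/L only. Another 28 and 13 candidates were above control at 2 and 3 doses, and all of these became members. In 75 of the 150, 50.0%, the control mean lay between 0.03 and 0.9 μg/L, so that only the lowest dose was above control. Their median L was 0.14, -0.08, -0.22 and -0.34 from the lowest to the highest dose. A further 34 members were below control at every dose, with a median L of -0.10, -0.14, -0.27 and -0.39. These were decreases that grew with dose from the lowest concentration on, and their median control mean of 351.4 normalized counts was the highest of the 4 classes. In 28 members both 0.03 and 0.9 μg/L were above control, with a median L of 0.29, 0.06, -0.14 and -0.32. In the remaining 13 only 250 μg/L was below control, and their median L was 0.49, 0.18, 0.08 and -0.37. Counted by dose, 116 members were above control at the lowest (50.8% of all eligible transcripts), 41 at the second (50.3%) and 13 at the third dose (55.2%).

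Among the members below control at every dose, the deepest at 0.03 μg/L stood at rank 102. It averaged 1009 normalized counts in control and 746.3, 678.0, 583.9 and 579.1 with citalopram. Its L was -0.44, -0.57, -0.79 and -0.80, so that 50 and 250 μg/L were nearly equal. The next, at rank 13, had 189.0 normalized counts in control and 140.9, 132.4, 110.0 and 83.9 normalized counts over the doses, with L reaching -1.17. No other member had L below -0.2 at 0.03 μg/L, where this held for 2 members in all (23.6% of all eligible transcripts).

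The lowest L at 250 μg/L in any member was -1.38, at rank 9. This transcript had 171.4 normalized counts in control and 174.0, 109.8, 87.3 and 66.0 normalized counts from 0.03 to 250 μg/L, so it was level with control at the lowest dose and fell over the higher ones. The 5 members with the lowest L at 250 μg/L, from -0.83 to -1.38, had ranks 2, 9, 13, 15 and 18 and control means of 171.4 to 891.0 normalized counts. They were neither the most nor the least abundant members.

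At the other end, 4 members (2.67%) had L above 1 at 0.03 μg/L, as did 1.84% of all eligible transcripts. Besides the transcripts at ranks 1 and 111 described above, these were the members at ranks 67 and 26. The first of these had 78.5 normalized counts in control and 168.8, 64.8, 62.2 and 53.1 normalized counts over the doses, and the second had 139.4 in control and 279.6, 141.6, 134.4 and 100.7. Both lost most of their height in the first step, as the transcript at rank 111 did.

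The 3 steps were of like median size in the members. The median fall in L was 0.17 for the first step, from 0.03 to 0.9 μg/L. It was 0.14 for the second and 0.14 for the third. Ranked instead by L at 0.03 minus L at 250 μg/L, the transcripts chosen had median steps of 0.24, 0.13 and 0.12. Over all eligible transcripts the median absolute difference in L between these pairs of doses was 0.20, 0.11 and 0.09. The widest range was seen in the first step, which ran up to 2.55 and had an upper quartile of 0.34, against upper quartiles of 0.19 and 0.25 in the later steps. The first step was the largest of the 3 in 58 members, the second in 36 and the third in 56.

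The steps within a member were mostly unequal. Each of the 3 steps was at least 0.05 in 87 members, at least 0.1 in 34 and at least 0.2 in 5. These counts also depend on the size of the whole fall. In 104 members a single step held 50% or more of the whole fall between 0.03 and 250 μg/L, in 17 it held 75% or more, and in 4 it held 90% or more. These shares, and which step was largest, were counted in the members only. Whether they set the members apart from other transcripts of falling order was not tested. The smallest step in any member was 0.00097, between 50 and 250 μg/L, and the 3 steps in turn were under 0.05 in 23, 23 and 24 members. The whole fall between 0.03 and 250 μg/L had a median of 0.49 on the log2 scale, a ratio of 1.41, with a range of 0.19 to 2.77. The part of it that ranked the members, between 0.9 and 250 μg/L, had a median of 0.26 and ranged from 0.17 to 1.71.

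**Figure D3:**
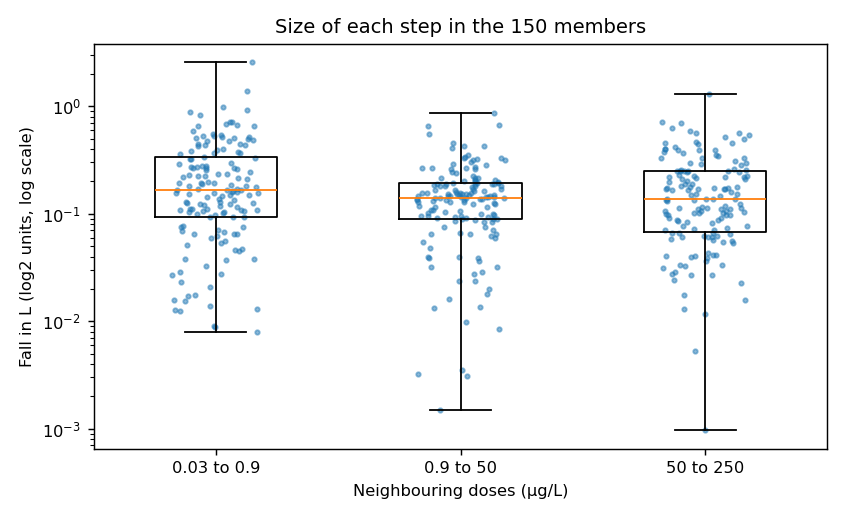
Fall in L between neighbouring doses in log2 units on a log axis, with a point for each of the 150 members, boxes for the quartiles and the median, and whiskers to the lowest and highest value. Medians are 0.17, 0.14 and 0.14, and the first step has the highest values, up to 2.55.

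The limits of the rule did not fall in a gap. The members at ranks 149 and 150 had falls of 0.176 and 0.171 between 0.9 and 250 μg/L, and the candidates at ranks 151 and 152 had 0.170 and 0.169. At the other limit, the transcripts of falling order nearest to -0.2 at 250 μg/L had L of -0.20002 inside and -0.19924 outside. The 75 candidates left out had a median L of 0.03, -0.12, -0.19 and -0.25 from the lowest to the highest dose. All 75 were below control from 0.9 μg/L on, which follows from these 2 limits. Within the 150, the first 50 ranks had a median L of 0.25, 0.06, -0.16 and -0.46 and the last 50 had 0.04, -0.11, -0.22 and -0.31. The ranks at the top were higher at the 2 low doses and lower at 250 μg/L, which the ranking by L at 0.9 minus L at 250 μg/L favours.

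Among the 24 orders that 4 doses can take, the falling order was the ninth most frequent and was held by 3.58% of the eligible transcripts. The rising order was held by 722 (3.15%). The rarest order, which from high to low ran 250, 0.9, 0.03 and 50 μg/L, was held by 304 transcripts. The most frequent, which ran 0.03, 250, 50 and 0.9 μg/L, was held by 2401. The limit at 250 μg/L was passed by 0.980% of eligible transcripts in the falling order, and its mirror, L of at least 0.2, by 173 transcripts (0.754%) in the rising order.

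**Figure D4:**
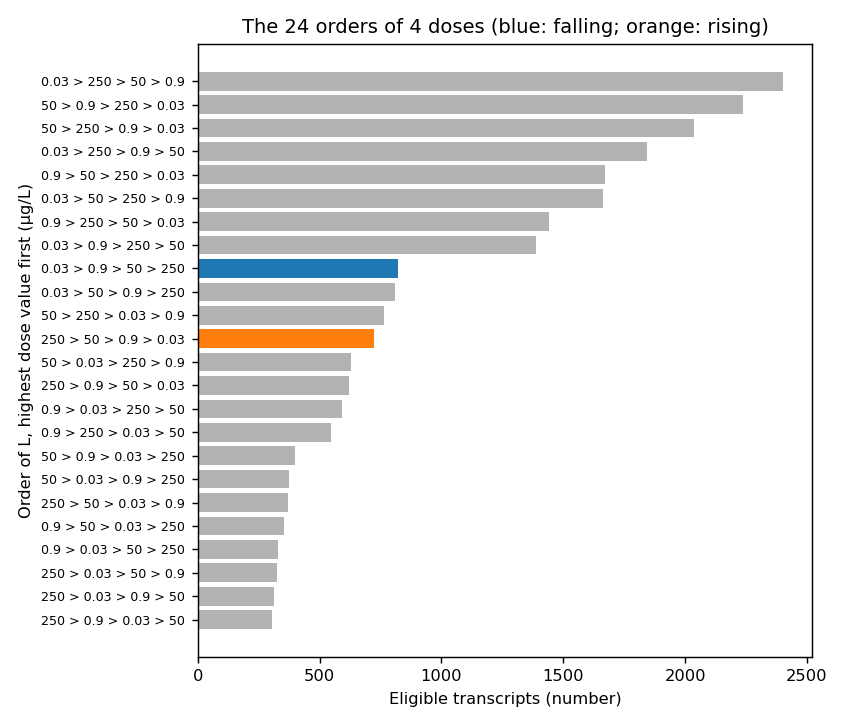
Number of eligible transcripts in each of the 24 orders of L over the 4 doses, highest value first, with the falling order in blue (821) and the rising order in orange (722). All 8 orders above the falling one have 0.03 μg/L at the top or the bottom.

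The values at 0.03 μg/L were the most widely spread of the 4 doses. L at this dose had an SD of 0.38 over the eligible transcripts, against 0.16, 0.21 and 0.20 at the higher doses, and it was the highest or the lowest of the 4 values in 76.9% of them. By contrast, 250 μg/L was the highest in 2657 and the lowest in 3088 of the 22957. Where the 3 higher doses fell in order and L at 250 μg/L was at most -0.2, which 853 transcripts met, 0.03 μg/L was on top in 225 (26.4%), which are the candidates of the ladder, and at the bottom in 355 (41.6%). It stood between the other doses in the rest, with 139 and 134 transcripts in the upper and lower of these places. The median L at 0.03 μg/L was -0.26 over the 853, and -0.13 over all 3173 eligible transcripts with this order of the 3 higher doses. Both sets were thus more often below control than above it at the lowest dose. L at 0.03 μg/L shares its control mean with the limit at 250 μg/L that the 853 met. From the 853, the ladder draws on those in which 0.03 μg/L was highest. How far the wide spread of L at 0.03 μg/L enters the first step was not tested.

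The median member was less abundant than the median eligible transcript. The control means of members had a median of 185.5 normalized counts and quartiles of 113.9 and 497.0, against a median of 291.7 and quartiles of 135.2 and 715.0 over all eligible transcripts. Control means under 100 normalized counts were found in 22.0% of members and 15.6% of eligible transcripts, and from 100 to 200 normalized counts in 30.7% and 22.2%. In the same direction, the SD of L at 250 μg/L over eligible transcripts was 0.28 for control means under 100 normalized counts and 0.14 from 1000 on. The part of this spread in the choice of members was not tested.

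The most abundant members were the 24 with control means of 1000 normalized counts or more. Their median L was 0.09, -0.11, -0.24 and -0.31, all were below control at 0.9 μg/L, and L at 250 μg/L ranged from -0.80 to -0.22. The most abundant member, at rank 126, averaged 81374 normalized counts in control and 80142, 76646, 69558 and 66828 with citalopram. Its L was -0.02, -0.09, -0.23 and -0.28, a fall to 0.821 of the control mean. The second, at rank 81, had 20483 normalized counts in control and 23596, 20250, 17442 and 17071 normalized counts over the doses. The fourth, at rank 112, had 12856 normalized counts in control and 12543, 12258, 11504 and 10555 normalized counts, and was below control at each dose. Of the 10 most abundant members 5 were below control at every dose and 5 were above it at 0.03 μg/L only. The largest difference among them at 0.03 μg/L was at rank 82, with 7875 normalized counts in control and 11105, 7025, 6098 and 5930 normalized counts over the doses.

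Summed over the 150 members, the group means came to 241133 normalized counts in control and 261312, 227100, 205319 and 193686 normalized counts from 0.03 to 250 μg/L. The members made up 0.882% of the summed control means of all eligible transcripts. The most abundant member alone held 33.7% of their sum in control. Without it, L of the sum was 0.18, -0.09, -0.23 and -0.33, and with it 0.12, -0.09, -0.23 and -0.32.

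**Figure D5:**
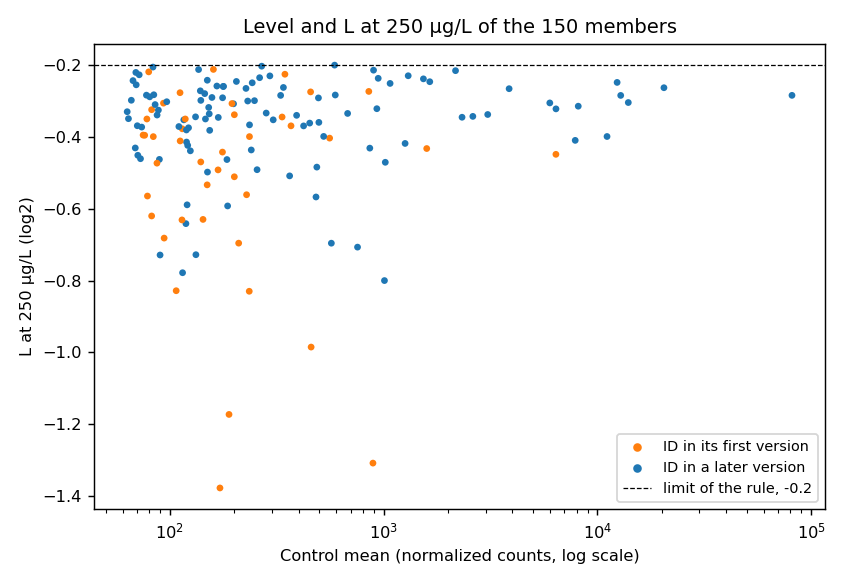
L at 250 μg/L against the control mean in normalized counts (log axis) for the 150 members, orange where the Ensembl ID is in its first version and blue where it is in a later one, with the limit of -0.2 dashed. The 5 lowest points, from -1.38 to -0.83, have control means of 171.4 to 891.0 and first-version IDs, and the points from 1000 normalized counts on lie between -0.22 and -0.80.

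A property that the rule did not use is the version of the transcript ID. In 42 of the 150 members, 28.0%, the ID was in its first version, against 13.4% of all eligible transcripts. Among the 75 candidates left out the share was 17.3%, among the 596 other transcripts of falling order 16.6%, and among 150 transcripts taken by the mirror of the rule, rising with dose, 16.0%. The share was higher in members than in eligible transcripts at each level of expression below 1000 normalized counts. For control means under 100 normalized counts it was 33.3% in members and 18.7% in eligible transcripts, and from 200 to 500 normalized counts 32.4% and 13.0%. Between 500 and 1000 normalized counts it was 23.1% in members, which is only 3 of 13, and 9.44% in eligible transcripts. From 1000 normalized counts on it was 8.33% in members, 2 of 24, and 7.37% in eligible transcripts.

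First-version members were more numerous at the top of the ladder. They made up 22 of the first 50 ranks, 10 of the next 50 and 10 of the last 50. Their median fall between 0.9 and 250 μg/L was 0.37, against 0.24 in the 108 members with later versions, and their median L at 250 μg/L was -0.42, against -0.33. At 0.03 μg/L the medians of these members were close, 0.14 and 0.13. Among all eligible transcripts the median L at that dose was 0.126 for first versions and -0.0069 for later ones. Over all eligible transcripts, L had an SD of 0.51, 0.22, 0.26 and 0.28 for first versions, and of 0.35, 0.15, 0.21 and 0.19 for later ones. First versions thus had a wider spread of L at every dose among the eligible transcripts. Within the members the SDs at 0.03 μg/L were alike, 0.330 for first and 0.334 for later versions. The later versions include the transcript at rank 111, with L of 2.56 at that dose. At 0.9, 50 and 250 μg/L the members' SDs were 0.20, 0.23 and 0.28 for first versions. They were 0.19, 0.17 and 0.13 for later ones. Eligible first versions were also less abundant, with a median control mean of 191.5 normalized counts against 313.6. The part of these differences in the share of first versions among the members was not tested.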

How the data were processed

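RNA of 50 pooled whole embryos per library was sequenced after removal of ribosomal RNA. According to the study's methods the authors corrected reads with rCorrector, trimmed them with Trimmomatic, quantified coding and non-coding Ensembl GRCz11 transcripts with Salmon, and compared every dose with control by DESeq2 as wrapped by Trinity. The rule by which a table lists a transcript (not given in the sources used here) bears on which were eligible. Only the group means that the authors deposited were used, a signal that is never negative, in counts divided by size factors. The deposited tables also hold the authors' fold changes with standard errors, test statistics and p-values, and these were not used.

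Samples were grouped by their titles. L was computed without a pseudocount, and tables were brought to a common scale by the median ratio of control means. The selection code was run on simulated group means with planted ladders. Their spread of L was narrower than in these data, so the run checks the code and not the choice of members here. Members, lists and named transcripts were chosen with earlier results of these data known. Named were the 2 members with the largest L at 0.9 minus L at 250 μg/L and the 2 with the highest L at 0.03 μg/L. Gene lists could not be applied, since 0 of 32963 IDs were paired with a gene. Python 3.11.15, numpy 2.4.6, pandas 2.3.3 and matplotlib 3.10.9 were used.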

Additional observations from a re-analysis of the deposited data

How the results depend on the processing

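No paired analysis was possible because the files used here hold group means and no values of single libraries, and for the same reason no replicate could be left out. Depth was not weighed, since counts per library were not analysed here. With each table centred on its median, 1 control mean per transcript, a pseudocount of 1 or of 10, or ranking by L at 0.03 minus L at 250 μg/L, 141, 149, 149, 142 and 120 of the 150 members were kept. Without IDs in their first version the other 108 members were kept, which the ranking makes certain. Centring, the common control mean and a pseudocount of 1 moved no median of L or of a step by over 0.05. The median control mean, 185.5 normalized counts as reported, was 169.9, 181.5 and 181.5 at these settings. A pseudocount of 10 changed L at 250 μg/L of ENSDART00000100954.5 to -0.64. The ranking by L at 0.03 minus L at 250 μg/L raised the members' median L at 0.03 μg/L to 0.20. The first step was then 0.24 and the later ones were 0.13 and 0.12. The choice of members depended on the limits of the rule, and medians below are those of the 150 (or fewer) chosen anew. With a minimum of 20 normalized counts 84 members were kept, with median L of 0.20 at 0.03 and -0.45 at 250 μg/L, a last step of 0.25 and a median control mean of 81.9. With a minimum of 100 these were 97 members, 0.079, -0.29 and a control mean of 354.7. At that setting there were 150 candidates and all were taken, so the ranking left none out. Without a minimum there were 399 candidates, 51 members were kept, median L was 0.24, 0.0061 and -0.61 at 0.03, 0.9 and 250 μg/L, later steps 0.21 and 0.36, and the control mean 52.2. Without a limit at 250 μg/L all 821 were candidates, 84 members were kept, median L was 0.37, 0.14, -0.057 and -0.25 and the last step 0.19. With a limit of -0.4 there were 54 candidates, 50 of them members, with medians of -0.17, -0.34 and -0.51 from 0.9 μg/L on, and a first and last step of 0.22 and 0.24. With steps of at least 0.05, 202 transcripts had the falling order, 105 were candidates and 87 members were kept. These are the same 87 that were counted above by the size of their steps. Ordering only the 3 higher doses, chosen after seeing the data as was the omission of first versions, gave 3173 transcripts, 853 candidates and 33 members kept, and reversed the low end, with median L of -0.29, 0.070 and -0.47 at 0.03, 0.9 and 250 μg/L and steps of -0.32, 0.26 and 0.32. These differences follow from which transcripts each rule admits.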

Other observations

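Below the minimum of 50 normalized counts, 7176 further transcripts were listed at all 4 doses with means above 0 in every group. The falling order was held by 289 of them (4.03%), and 174 (2.42%) also had L of at most -0.2 at 250 μg/L. A mean of 0 at 250 μg/L only was found for 12 transcripts, and in 1 of these L fell over the 3 lower doses as well. Its group means were 219.2 normalized counts in control and, with rising dose, 195.6, 111.7, 5.92 and 0. This transcript was chosen after its values were seen, and whether single libraries carried its counts is not known from group means.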
